A study of Mus musculus with 12 samples.

Results

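The 33 genes described here are a set of B cell, T cell and pan-leukocyte genes, taken from the 14159 genes listed in whole inguinal white adipose tissue (iWAT) of mice. They were chosen by measured values, namely by their high level in the libraries of cold-exposed Atf4WT mice. All 33 were found and all passed the filter for low values (mean over all libraries of 10 normalized counts or more), which 13404 of the 14159 genes passed. The set holds 12 B cell, 16 T cell and 5 pan-leukocyte genes. Polyadenylated RNA was sequenced in 4 groups of 3 biological replicates, numbered 0, 1 and 2: Atf4WT and Atf4AKO iWAT at room temperature (RT) and after cold exposure for 24 h. Atf4AKO mice carry Atf4 alleles with loxP sites (Atf4 flox/flox) and Adipoq-Cre, in which the adiponectin promoter drives the recombinase in adipocytes. Atf4WT mice are Atf4 flox/flox littermates without Cre, and all are of the C57BL/6 background. Age and sex of the sequenced mice are not given in the sources used here. Whole tissue was used, so fewer cells of a type and less RNA per cell cannot be told apart in these bulk values.

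Adipose tissue holds resident lymphocytes, and the inguinal fat pad surrounds a lymph node, an organ packed with B cells in follicles and T cells around them. B cells recognise antigen through a surface immunoglobulin that signals through CD79A and CD79B, and T cells through a receptor that signals through the CD3 chains and CD247. Both relay the signal through Src-family kinases, adaptors and a second kinase, and both express CD45 (Ptprc) and other genes shared by leukocytes. Whether the node was removed at dissection is not given in the sources used here.

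The depth was even, with between 25719476 and 29105147 reads on listed genes per library. Atf4, the targeted gene, was at 5669, 4670.3 and 4107 normalized counts (reads divided by the size factor of the library) in Atf4WT and 1594, 1469.6 and 1639 in Atf4AKO iWAT at RT, and at 7644, 7511 and 5756 and 1578, 788 and 1179.8 after cold exposure, without overlap between genotypes. Ucp1, the uncoupling protein of thermogenic adipocytes, ranged from 204.0 to 1097 at RT and from 73632 to 119558 after cold exposure. In 2 libraries Acta1, the actin of skeletal muscle, was above 10000, at 35541 in replicate 2 of Atf4WT at RT and 13734 in replicate 0 of Atf4WT after cold exposure, against 11.7 to 1314 elsewhere. In 2 others the macrophage gene Adgre1 was low, at 153.0 in replicate 1 of cold-exposed Atf4WT and 120.2 in replicate 1 of cold-exposed Atf4AKO, against 574 to 1155 in the remaining 10. Values without these libraries are given beside the results they touch.

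**Figure D1:**
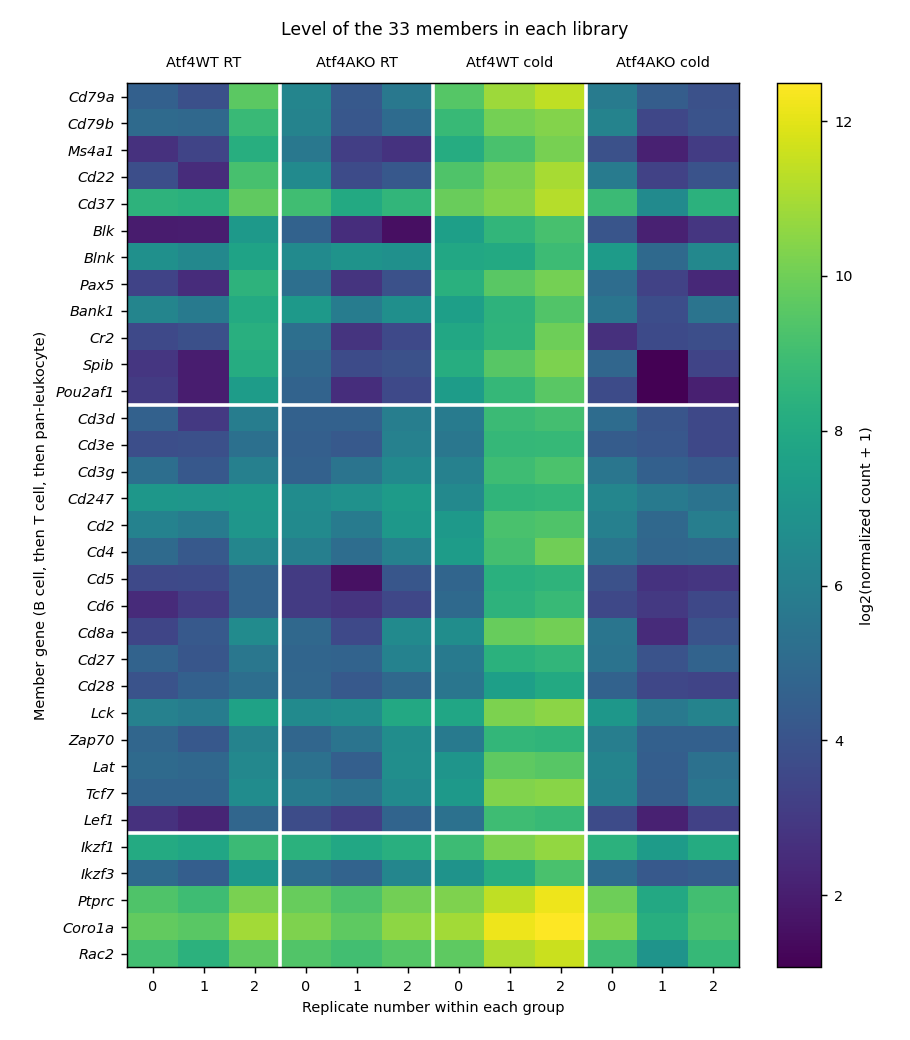
Each row is a member and each column a library, with the colour giving log2(normalized count + 1). Replicates 1 and 2 of cold-exposed Atf4WT are bright in all 3 blocks. Replicate 2 of Atf4WT at RT and replicate 0 of cold-exposed Atf4WT are brighter in the B cell block (means 8.40 and 8.37) than in the T cell block (6.01 and 6.22). The pan-leukocyte block is brighter still in these 2 libraries (9.37 and 9.33).

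Promoter sequences are shown for 5 members that the results turn on: Spib, whose values ranged the most among the 33; Bank1, a B cell gene past the threshold in a tested comparison; Lck; and Cd3g and Cd3d, which are divergently oriented neighbours on chromosome 9 with 1354 bp between them. Each sequence is the 250 bases before the start in the RefSeq table (GRCm38.p6), 5′ to 3′ on the strand of the gene. Capitals mark the ETS core AGGAAG, the E-box CAGGTG or CAGCTG, the TCF/LEF motif CTTTGAA or CTTTGAT and the RUNX motif TGTGGT, each on either strand.
Spib (chr7:44532072-44532321, minus strand): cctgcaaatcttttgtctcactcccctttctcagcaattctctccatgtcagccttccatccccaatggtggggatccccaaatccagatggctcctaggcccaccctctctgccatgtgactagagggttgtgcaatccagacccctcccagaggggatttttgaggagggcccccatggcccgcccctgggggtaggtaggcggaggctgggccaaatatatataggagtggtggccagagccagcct
Bank1 (chr3:136326067-136326316, minus strand): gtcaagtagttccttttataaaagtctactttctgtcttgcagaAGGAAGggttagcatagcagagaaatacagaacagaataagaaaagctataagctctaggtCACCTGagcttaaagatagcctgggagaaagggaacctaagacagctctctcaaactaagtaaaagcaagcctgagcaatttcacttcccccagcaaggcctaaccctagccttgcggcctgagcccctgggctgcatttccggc
Lck (chr4:129573642-129573891, minus strand): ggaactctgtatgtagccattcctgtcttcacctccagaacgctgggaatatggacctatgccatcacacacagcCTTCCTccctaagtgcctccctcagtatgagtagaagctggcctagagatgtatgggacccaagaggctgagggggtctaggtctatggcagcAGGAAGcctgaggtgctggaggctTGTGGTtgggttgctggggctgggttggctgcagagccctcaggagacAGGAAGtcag
Cd3g (chr9:44980432-44980681, minus strand): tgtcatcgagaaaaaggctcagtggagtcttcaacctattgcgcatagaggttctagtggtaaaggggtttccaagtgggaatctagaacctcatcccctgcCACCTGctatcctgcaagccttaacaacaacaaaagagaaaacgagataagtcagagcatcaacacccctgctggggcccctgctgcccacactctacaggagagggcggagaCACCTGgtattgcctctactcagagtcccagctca
Cd3d (chr9:44981536-44981785, plus strand): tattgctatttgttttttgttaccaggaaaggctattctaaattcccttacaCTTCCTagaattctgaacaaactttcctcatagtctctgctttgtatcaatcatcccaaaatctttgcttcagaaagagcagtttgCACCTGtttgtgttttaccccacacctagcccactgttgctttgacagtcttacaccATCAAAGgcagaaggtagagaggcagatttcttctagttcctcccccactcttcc
None of these motifs was found in the Spib window, while Bank1 held an ETS core 206 bases and an E-box 145 bases before the start. Lck held 3 ETS cores and a RUNX motif, Cd3g 2 E-boxes, and Cd3d an ETS core, an E-box and a TCF/LEF motif.

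Of the 33 members, 24 had an entry in the promoter table, with 34 windows in all. An E-box of this kind was present in 6 of 9 B cell, 8 of 12 T cell and 0 of 3 pan-leukocyte members, and in 30.6% of all 27025 genes in the table. The ETS core was present in 4 of 9, 8 of 12 and 3 of 3, against 32.3% of all genes. Counted by window, because some genes have several, the E-box was in 15 of 34 member windows and 27.7% of all 32851 windows, and the ETS core in 18 of 34 and 29.5%. The TCF/LEF motif was in 2 of 34 member windows against 7.48% of all, and the RUNX motif in 2 of 34 against 14.05%. The octamer ATTTGCAT, bound by the factors that Pou2af1 assists, was found in 1 member, Blnk, and in 1.81% of all genes. A match is a description of letters and not a site of binding.

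The signalling subunits of the B cell receptor differed widely between libraries. Values are given as normalized counts of replicates 0, 1 and 2, in that order. Cd79a (chr7:24897381-24902197, plus strand), which encodes the Ig-alpha chain, was at 23, 13.5 and 772 in Atf4WT iWAT at RT, 75.3, 17.9 and 48.2 in Atf4AKO iWAT at RT, 723, 1792 and 2667 in Atf4WT iWAT after cold exposure and 55.3, 20.4 and 14 in Atf4AKO iWAT after cold exposure. Its partner Cd79b, the Ig-beta chain, was at 31.2, 29.8 and 446 in Atf4WT iWAT at RT, 71.6, 16.9 and 32.5 in Atf4AKO iWAT at RT, 437, 1102 and 1320.3 in Atf4WT iWAT after cold exposure and 71.2, 10.2 and 15 in Atf4AKO iWAT after cold exposure. In both genes the 3 libraries of cold-exposed Atf4WT lay above all libraries of both Atf4AKO groups. They overlapped with Atf4WT at RT, because replicate 2 of that group was at the level of replicate 0 of the cold-exposed group. The mean of Cd79a after cold exposure was 1727 ± 974 in Atf4WT and 29.9 ± 22.2 in Atf4AKO iWAT (SD, n = 3), a log2 difference of -5.85.

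Among the surface proteins of B cells, Ms4a1, Cd22 and Cr2 were near 0 in several libraries. Ms4a1 encodes CD20, a marker of mature B cells, and was at 5.5, 9.6 and 299.5 in Atf4WT iWAT at RT, 48.3, 8.0 and 5.6 in Atf4AKO iWAT at RT, 282, 594 and 1149 in Atf4WT iWAT after cold exposure and 13.8, 3.4 and 7.5 in Atf4AKO iWAT after cold exposure. Cd22, an inhibitory co-receptor of the B cell receptor, was at 12.9, 4.8 and 578 in Atf4WT and 91.1, 11.9 and 17.6 in Atf4AKO iWAT at RT, and at 640.0, 1123 and 2038 in Atf4WT and 56.3, 9.1 and 15 in Atf4AKO iWAT after cold exposure. Cr2, the complement receptor of the B cell co-receptor, was at 11, 13.5 and 313 in Atf4WT and 37.2, 6.0 and 11.1 in Atf4AKO iWAT at RT, and at 238, 356 and 1016 in Atf4WT and 5.3, 11.3 and 12.9 in Atf4AKO iWAT after cold exposure. These 3 genes shared the pattern of Cd79a, with replicate 2 of Atf4WT at RT at 299.5, 578 and 313 normalized counts and the other replicates of that group at 13.5 or below.

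Cd37, a tetraspanin of B cells and other leukocytes, was at 350.0, 315 and 841 in Atf4WT iWAT at RT, 506, 256 and 388 in Atf4AKO iWAT at RT, 945, 1269.8 and 2375 in Atf4WT iWAT after cold exposure and 459, 93 and 337 in Atf4AKO iWAT after cold exposure. Its lowest value was 93.0 and its highest 2375, a 25.5-fold range, compared with a median of 227-fold over the 12 B cell members and 1.83-fold over all tested genes. Cd37 shares exonic sequence with Tead2 on the opposite strand, and the strand setting of the counting is not given in the sources used here. Tead2 itself stayed between 97.8 and 176.1 normalized counts in the same 12 libraries.

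Of the signalling genes of B cells, Blk, a Src-family kinase, was at 2.8, 2.9 and 147 in Atf4WT and 24.2, 5.0 and 1.9 in Atf4AKO iWAT at RT, and at 182, 382 and 572 in Atf4WT and 15.9, 3.4 and 6.4 in Atf4AKO iWAT after cold exposure. Blnk, the adaptor downstream of the receptor, was at 109, 84.7 and 209 in Atf4WT iWAT at RT, 93, 122 and 112 in Atf4AKO iWAT at RT, 240.4, 258 and 483 in Atf4WT iWAT after cold exposure and 163, 30.6 and 83.8 in Atf4AKO iWAT after cold exposure. Bank1, a scaffold protein of B cell signalling, was at 76.3, 52 and 267 in Atf4WT iWAT at RT, 152, 56.8 and 108 in Atf4AKO iWAT at RT, 182, 350.4 and 669.6 in Atf4WT iWAT after cold exposure and 44.6, 12.5 and 43 in Atf4AKO iWAT after cold exposure. Blk followed Cd79a, whereas Blnk and Bank1 had 30.6 and 12.5 as their lowest values and ranged 15.8-fold and 53.7-fold. In Bank1 the libraries of cold-exposed Atf4AKO lay below those of both genotypes at RT.

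Of the transcription factor genes of the B lineage, Spib and Pou2af1 had the widest ranges of the 33 members. Pax5, the factor that maintains B cell identity, was at 9.2, 4.8 and 348 in Atf4WT iWAT at RT, 36.3, 6.0 and 13.9 in Atf4AKO iWAT at RT, 320.5, 761 and 1102 in Atf4WT iWAT after cold exposure and 35.1, 9.1 and 4.3 in Atf4AKO iWAT after cold exposure. Spib (chr7:44525993-44532071, minus strand), an ETS factor of B cells and plasmacytoid dendritic cells, was at 6.4, 2.9 and 285 in Atf4WT and 29.7, 11.9 and 13.9 in Atf4AKO iWAT at RT, and at 294, 736 and 1194 in Atf4WT and 27.6, 1.1 and 9.7 in Atf4AKO iWAT after cold exposure. Pou2af1, a B cell co-activator of octamer-binding factors, was at 7.4, 2.9 and 168 in Atf4WT and 25.1, 5.0 and 11.1 in Atf4AKO iWAT at RT, and at 167, 406 and 747 in Atf4WT and 11.7, 1.1 and 3.2 in Atf4AKO iWAT after cold exposure. The ranges were 256-fold for Pax5, 1053-fold for Spib and 659-fold for Pou2af1. The lowest value of Spib and of Pou2af1 corresponded to 1 read, in replicate 1 of cold-exposed Atf4AKO, so the size of these ranges depends on single reads.

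**Figure D2:**
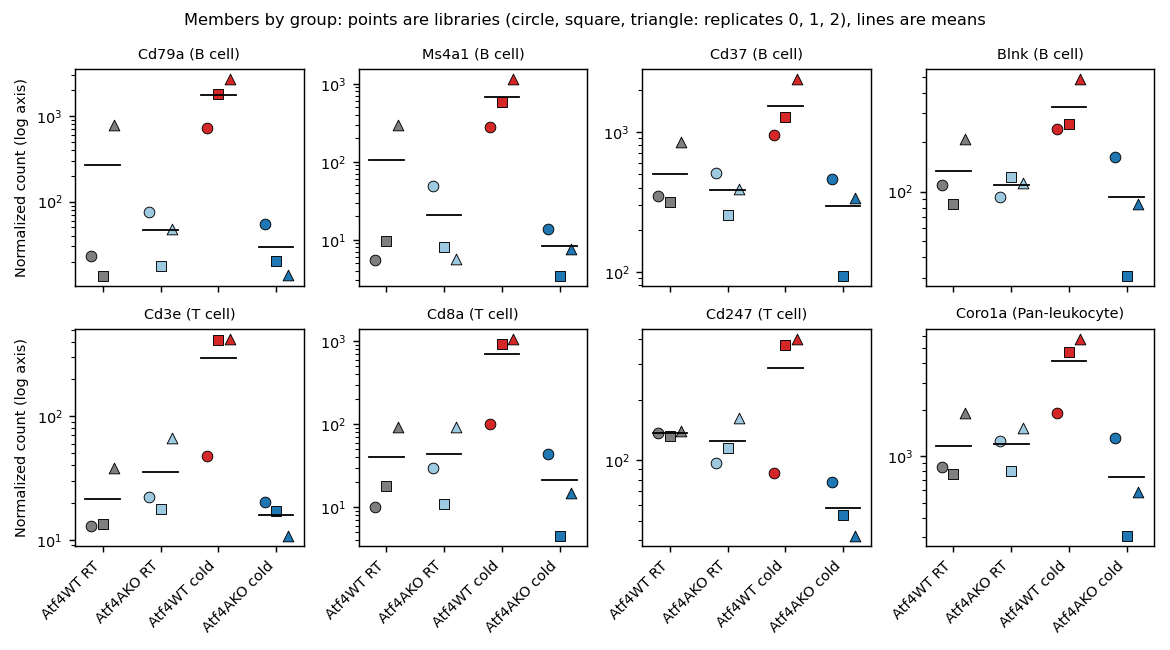
Points are libraries, horizontal lines are group means, and the vertical log axes give normalized counts of 8 members. In Cd79a and Ms4a1 replicate 2 of Atf4WT at RT (triangle) reaches replicate 0 of cold-exposed Atf4WT (circle), in Cd3e and Cd8a replicate 0 lies below the other cold-exposed Atf4WT replicates by a wider gap, and Blnk and Cd247 span narrower ranges of 15.8-fold and 9.53-fold.

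The T cell receptor complex gave another order of libraries. Cd3e, the CD3 epsilon chain, was at 12.9, 13.5 and 38 in Atf4WT iWAT at RT, 22.3, 17.9 and 66.8 in Atf4AKO iWAT at RT, 47.3, 413 and 422 in Atf4WT iWAT after cold exposure and 20.2, 17 and 10.7 in Atf4AKO iWAT after cold exposure. Cd3d, the delta chain, was at 23.9, 6.7 and 58.4 in Atf4WT iWAT at RT, 23.2, 23.9 and 60.3 in Atf4AKO iWAT at RT, 55.5, 459 and 546 in Atf4WT iWAT after cold exposure and 33, 15.9 and 10.7 in Atf4AKO iWAT after cold exposure. Cd3g, the gamma chain, was at 35.8, 17.3 and 65.8 in Atf4WT and 23.2, 42.8 and 89.1 in Atf4AKO iWAT at RT, and at 67.8, 497 and 606 in Atf4WT and 45.7, 22.7 and 18.3 in Atf4AKO iWAT after cold exposure. Replicates 1 and 2 of cold-exposed Atf4WT stood out in all 3 genes, while replicate 0 was near replicate 2 of both RT groups. The mean of Cd3e after cold exposure was 294 ± 214 in Atf4WT and 16 ± 4.8 in Atf4AKO iWAT (SD, n = 3).

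Cd247, the zeta chain that carries most signalling motifs of the complex, was at 136, 132 and 140.0 in Atf4WT iWAT at RT, 96.7, 114 and 161 in Atf4AKO iWAT at RT, 86.3, 374 and 399 in Atf4WT iWAT after cold exposure and 77.6, 53.3 and 41.9 in Atf4AKO iWAT after cold exposure. Its range was 9.53-fold, the lowest among the 33 members, and replicate 0 of cold-exposed Atf4WT lay below all Atf4WT libraries at RT. Exons of Cd247 overlap with those of Pou2f1 on the opposite strand, and Pou2f1 was between 349.5 and 582.0 normalized counts in the 12 libraries. The part of such shared sequence in the values of Cd247 was not tested.

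Of the co-receptors, Cd8a followed the CD3 chains, whereas Cd4 departed from them in cold-exposed Atf4WT. Replicate 0 minus replicate 1 of that group was -1.70 on the log2 scale for Cd4, -3.17 for Cd8a and -3.10 to -2.86 for the CD3 genes. Replicate 1 minus replicate 2 was -0.93 for Cd4, -0.21 for Cd8a and -0.28 to -0.03 for the CD3 genes. Cd4, which binds MHC class II and is also expressed by some myeloid cells, was at 31.2, 18.3 and 77.9 in Atf4WT and 63.2, 34.8 and 67.7 in Atf4AKO iWAT at RT, and at 166, 544 and 1035 in Atf4WT and 44.6, 27.2 and 29 in Atf4AKO iWAT after cold exposure. Cd8a, the co-receptor for MHC class I, was at 10.1, 18.3 and 93.6 in Atf4WT iWAT at RT, 29.7, 11 and 91.8 in Atf4AKO iWAT at RT, 102, 922 and 1065 in Atf4WT iWAT after cold exposure and 44.6, 4.5 and 15 in Atf4AKO iWAT after cold exposure. The Cd8a value divided by the Cd4 value was 0.611, 1.70 and 1.03 in replicates 0, 1 and 2 of cold-exposed Atf4WT. At RT this ratio was above 1 in replicate 2 of both genotypes, at 1.20 in Atf4WT and 1.36 in Atf4AKO.

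Adhesion and costimulatory receptors of T cells were high in the same 2 libraries. Cd2, an adhesion molecule, was at 68.9, 55.8 and 132 in Atf4WT and 92, 54.8 and 144 in Atf4AKO iWAT at RT, and at 145, 589 and 658 in Atf4WT and 65.9, 29.5 and 60.2 in Atf4AKO iWAT after cold exposure. Cd28, the main costimulatory receptor, was at 14.7, 23.1 and 35.2 in Atf4WT and 27.9, 17.9 and 29.7 in Atf4AKO iWAT at RT, and at 46.2, 182 and 259 in Atf4WT and 24.4, 10.2 and 9.7 in Atf4AKO iWAT after cold exposure. Cd27, a costimulatory receptor of the TNF receptor family, ranged from 14.7 to 383 normalized counts.

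Cd5 and Cd6, related scavenger-type receptors that dampen T cell receptor signals, lie next to each other on chromosome 19 with 50338 bp between them. Cd5 was at 11, 11.5 and 25 in Atf4WT and 7.4, 2.0 and 16.7 in Atf4AKO iWAT at RT, and at 26.7, 321 and 359 in Atf4WT and 13.8, 5.7 and 6.4 in Atf4AKO iWAT after cold exposure. Cd6 was at 4.6, 7.7 and 25 in Atf4WT and 7.4, 6.0 and 10.2 in Atf4AKO iWAT at RT, and at 30.8, 352 and 428 in Atf4WT and 10.6, 6.8 and 10.7 in Atf4AKO iWAT after cold exposure. Both were at most 30.8 normalized counts in replicate 0 of cold-exposed Atf4WT and at least 320.9 in replicates 1 and 2. Cd6 had the most negative difference of the T cell members between replicates 0 and 2 of that group, at -3.75 on the log2 scale.

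The kinases and the adaptor of the T cell receptor were high in the same libraries as the CD3 chains. Lck, the Src-family kinase that starts the signal, was at 68, 57.7 and 199 in Atf4WT iWAT at RT, 93, 99.6 and 249.6 in Atf4AKO iWAT at RT, 226, 1215 and 1438 in Atf4WT iWAT after cold exposure and 136, 51 and 72 in Atf4AKO iWAT after cold exposure. Lat, the membrane adaptor, was at 31.2, 28.9 and 83.4 in Atf4WT and 39, 21.9 and 103 in Atf4AKO iWAT at RT, and at 130.5, 803 and 745 in Atf4WT and 74.4, 21.5 and 39.8 in Atf4AKO iWAT after cold exposure. Zap70, the kinase that binds the CD3 and zeta chains, was at 27.6, 17.3 and 70.5 in Atf4WT and 27.9, 43.8 and 101 in Atf4AKO iWAT at RT, and at 53.4, 392 and 373 in Atf4WT and 60.6, 22.7 and 22.6 in Atf4AKO iWAT after cold exposure. Zap70 was the member whose groups overlapped after cold exposure, because replicate 0 of Atf4AKO, at 60.6, exceeded replicate 0 of Atf4WT, at 53.4.

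Tcf7 and Lef1 encode the TCF-1 and LEF-1 factors of naive and memory T cells. Tcf7 was at 25.7, 26 and 98.3 in Atf4WT iWAT at RT, 52.1, 40.8 and 92.8 in Atf4AKO iWAT at RT, 147, 1286 and 1405 in Atf4WT iWAT after cold exposure and 70.2, 20.4 and 44.1 in Atf4AKO iWAT after cold exposure. Lef1 was at 5.5, 3.8 and 27.8 in Atf4WT and 12.1, 8.0 and 26 in Atf4AKO iWAT at RT, and at 39, 494 and 429 in Atf4WT and 11.7, 3.4 and 8.6 in Atf4AKO iWAT after cold exposure. Of the 16 T cell members, 3 were higher in replicate 1 than in replicate 2 of cold-exposed Atf4WT, namely Zap70, Lat and Lef1, while the other 13 were highest in replicate 2.

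The pan-leukocyte members other than Ikzf3 were at 125.8 normalized counts or more in each library. Ptprc, which encodes CD45, was at 650.5, 488 and 1181 in Atf4WT iWAT at RT, 923, 624 and 1071 in Atf4AKO iWAT at RT, 1236, 2699 and 4645 in Atf4WT iWAT after cold exposure and 1001, 245 and 519 in Atf4AKO iWAT after cold exposure. Coro1a, an actin regulator of leukocytes, was at 851, 769.9 and 1898 in Atf4WT and 1262, 802 and 1516 in Atf4AKO iWAT at RT, and at 1902, 4713 and 5752 in Atf4WT and 1303, 303 and 584 in Atf4AKO iWAT after cold exposure. Rac2, a small GTPase of haematopoietic cells, was at 515, 336 and 845 in Atf4WT and 674, 521 and 717 in Atf4AKO iWAT at RT, and at 796, 2222 and 3041 in Atf4WT and 496, 126 and 417 in Atf4AKO iWAT after cold exposure. All 5 pan-leukocyte members were highest in replicate 2 of cold-exposed Atf4WT and lowest in replicate 1 of cold-exposed Atf4AKO. In the latter library the summed macrophage genes were also low, at 6011 normalized counts against 32029 and 32975 in the other 2 replicates, and their part in these values was not tested.

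Ikzf1 (Ikaros) and Ikzf3 (Aiolos) are related zinc-finger factors, the first expressed across lymphoid and other haematopoietic cells and the second mainly in lymphocytes. Ikzf1 was at 261, 224 and 464 in Atf4WT and 333, 241 and 309.9 in Atf4AKO iWAT at RT, and at 478, 1208 and 1614 in Atf4WT and 334, 159.9 and 269.7 in Atf4AKO iWAT after cold exposure. Ikzf3 was at 31.2, 21.2 and 145 in Atf4WT and 34.4, 24.9 and 78.9 in Atf4AKO iWAT at RT, and at 123, 299.8 and 595 in Atf4WT and 33, 18.1 and 20.4 in Atf4AKO iWAT after cold exposure. The Ikzf3 value divided by the Ikzf1 value was between 0.248 and 0.369 in the 3 cold-exposed Atf4WT libraries, 0.312 in replicate 2 of Atf4WT at RT and 0.254 in replicate 2 of Atf4AKO at RT. In the remaining 7 libraries it was between 0.0757 and 0.120. Coro1a overlaps in its exons with Bola2 on the opposite strand, which was between 260.0 and 530.9 normalized counts.

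Levels of members were compared with each other per length, as the mean normalized count per kb of annotated exons in cold-exposed Atf4WT iWAT. Coro1a was at 1481 per kb, followed by Cd79a at 1186, Cd79b at 666 and Rac2 at 651. The medians were 156 per kb for B cell, 115 for T cell and 190.4 for pan-leukocyte members. Tcf7 at 360.3 and Lck at 328 were the highest T cell members on this scale, and Cd28 at 26.5 was the lowest of the 33. The 3 CD3 genes were at 195 (Cd3d), 119 (Cd3g) and 72.0 (Cd3e) per kb, and Cd247 was at 53.7. In cold-exposed Atf4AKO iWAT Coro1a was at 262 per kb, Cd79a at 20.5 and Tcf7 at 17.1. Each of the first 3 steps in this order was smaller than the SD of the higher gene between the 3 cold-exposed Atf4WT libraries.

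The ratio of B cell to T cell genes differed between libraries of the same group. The reads of the 12 B cell members made up 54.8% (52.0 to 57.6), 54.1% (51.0 to 57.2) and 79.3% (78.3 to 80.3) of the reads on B cell and T cell members in replicates 0, 1 and 2 of Atf4WT at RT. Here and below the brackets give the 95% Clopper-Pearson interval, which covers counting error only. Cd37, which other leukocytes express too, was at 350.0 of 645 summed normalized counts of B cell members in replicate 0 of this group. It was at 315 of 536 in replicate 1 and 841 of 4673 in replicate 2. In libraries with low B cell members the share therefore rests largely on Cd37 and is not a ratio of cells. In Atf4AKO iWAT at RT the shares were 64.9% (62.7 to 67.0), 48.1% (45.1 to 51.1) and 35.7% (33.7 to 37.7). After cold exposure they were 76.6% (75.5 to 77.7), 49.9% (49.1 to 50.6) and 59.2% (58.7 to 59.8) in Atf4WT, and 55.3% (52.9 to 57.7), 38.6% (34.2 to 43.2) and 56.5% (53.3 to 59.8) in Atf4AKO iWAT. The 2 libraries with the highest B cell share, replicate 2 of Atf4WT at RT and replicate 0 of cold-exposed Atf4WT, were those with Acta1 above 10000.

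A ratio of single genes was highest in the same 2 libraries, replicate 2 of Atf4WT at RT and replicate 0 of cold-exposed Atf4WT. It ordered the remaining libraries differently from the share of reads. Replicate 1 of cold-exposed Atf4WT had a share of 49.9% but a ratio of 4.34, against 54.8% and 1.79 in replicate 0 of Atf4WT at RT. Cd79a divided by Cd3e was 1.79, 1.00 and 20.3 in Atf4WT iWAT at RT, 3.38, 1.00 and 0.722 in Atf4AKO iWAT at RT, 15.3, 4.34 and 6.32 in Atf4WT iWAT after cold exposure, and 2.74, 1.20 and 1.30 in Atf4AKO iWAT after cold exposure. On the log2 scale the mean of the B cell members minus that of the T cell members was 0.58 ± 1.57 in Atf4WT and -0.26 ± 1.21 in Atf4AKO at RT (SD, n = 3). After cold exposure it was 1.15 ± 0.92 in Atf4WT and -0.34 ± 0.38 in Atf4AKO. It was 0.65 in cold-exposed Atf4WT without replicate 0 and -0.14 in cold-exposed Atf4AKO without replicate 1. The value in Atf4WT at RT was -0.32 without replicate 2, and that in Atf4AKO at RT was 0.30 without replicate 2, so the sign of both rested on 1 library.

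**Figure D3:**
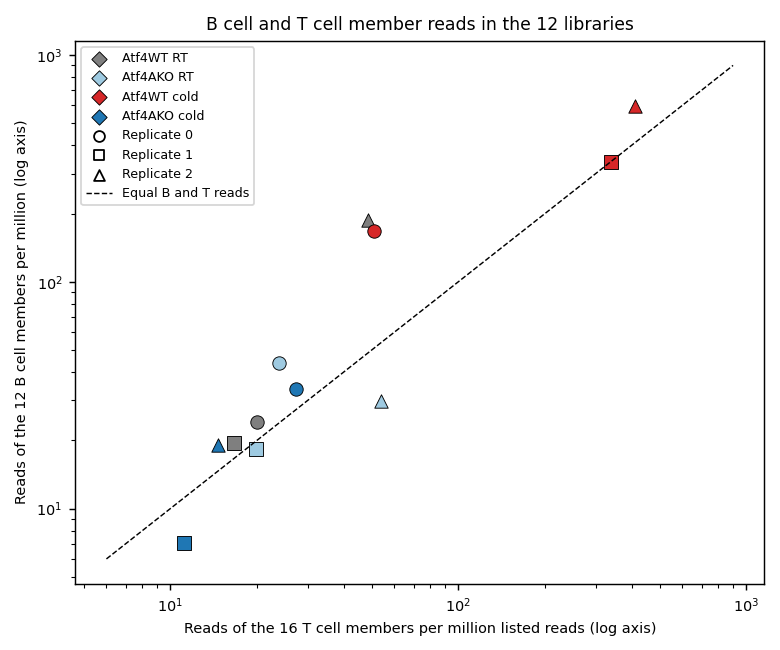
Each point is a library, with reads of the 16 T cell members (x axis) and of the 12 B cell members (y axis) in RPM (reads on listed genes), both on log axes, and the dashed line marks equal reads. Replicate 2 of Atf4WT at RT (187 RPM in B cell members) and replicate 0 of cold-exposed Atf4WT (167) lie together above the line, and replicates 1 and 2 of cold-exposed Atf4WT lie at the upper right.

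In RPM, scaled to the reads on all listed genes, the whole set was at 381, 1085 and 1617 in replicates 0, 1 and 2 of cold-exposed Atf4WT. In the other 9 libraries it was between 47.3 and 417 RPM, the highest of them being replicate 2 of Atf4WT at RT. B cell members alone were at 167, 336 and 597 RPM and T cell members at 51.1, 338 and 411 in the 3 cold-exposed Atf4WT libraries. In cold-exposed Atf4AKO they were at 33.7, 7.02 and 19.1, and at 27.2, 11.2 and 14.7, respectively. The B cell reads of the 3 cold-exposed Atf4WT libraries therefore spanned 3.57-fold and the T cell reads 8.04-fold.

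Between pairs of libraries, B cell and T cell members differed by unequal amounts. Replicate 0 was different from replicate 1 of cold-exposed Atf4WT by a median of -1.07 on the log2 scale in B cell members, with all 12 lower, and by a median of -2.85 in T cell members, with all 16 lower. Pan-leukocyte members lay between, at -1.31. Replicate 1 differed from replicate 2 by a median of -0.87 in B cell members and -0.18 in T cell members. Replicate 2 of Atf4WT at RT and replicate 0 of cold-exposed Atf4WT, which belong to different groups, differed by a median of 0.02 in B cell, -0.16 in T cell and 0.00 in pan-leukocyte members.

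Within Atf4WT at RT, replicate 2 was above replicate 0 in all 33 members, by a median of 4.86 on the log2 scale in B cell, 1.31 in T cell and 0.86 in pan-leukocyte members. Against replicate 1 the medians were 5.04, 1.68 and 1.30. Among the B cell members Blnk had the lowest difference between replicates 2 and 0, at 0.93, and Ms4a1 the highest, at 5.53. Among the T cell members these were Cd247 at 0.04 and Cd8a at 3.09.

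Smaller differences of the same kind were present in Atf4AKO iWAT at RT, where different libraries were high in B cell and in T cell members. Replicate 0 was above replicate 1 by a median of 2.05 on the log2 scale in B cell and 0.32 in T cell members, and 11 of the 12 B cell members were highest in replicate 0. Replicate 2 was above replicate 1 by a median of 0.70 in B cell and 1.31 in T cell members, and all 16 T cell members were highest in replicate 2. In replicate 2 the summed 11 genes of NK and cytotoxic cells were also high, at 1767 normalized counts against 640.5 and 913 in replicates 0 and 1, and their part in the T cell values was not tested. In cold-exposed Atf4AKO, replicate 0 was above replicate 1 by medians of 2.12 in B cell, 1.17 in T cell and 1.97 in pan-leukocyte members.

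**Figure D4:**
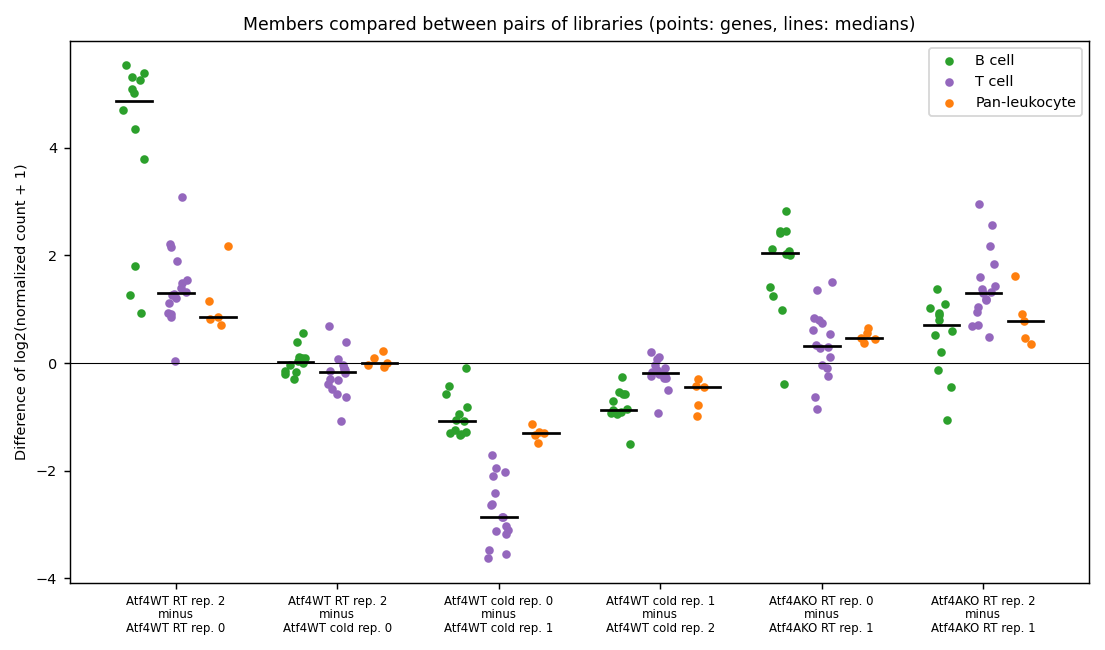
Points are members, lines are medians, and the y axis is the difference of log2(normalized count + 1) between the 2 libraries named under each column. Replicate 2 of Atf4WT at RT exceeds replicate 0 mainly in B cell members (median 4.86), does not depart far from replicate 0 of cold-exposed Atf4WT (median 0.02), and the T cell members separate replicates 0 and 1 of cold-exposed Atf4WT (median -2.85).

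The level after cold exposure was the basis on which the members were chosen, so the comparisons with cold-exposed Atf4WT are descriptions without a test. Over 1.5-fold lower in Atf4AKO than in Atf4WT iWAT, with no overlap between the 3 and 3 libraries, were 12 of 12 B cell, 15 of 16 T cell and 5 of 5 pan-leukocyte members, against 4.98% of all tested genes. The median log2 differences were -5.57 in B cell, -3.51 in T cell and -2.56 in pan-leukocyte members, and 0.05 over all tested genes. The B cell members ranged from -6.26 for Pou2af1 to -2.04 for Blnk, and the T cell members from -4.87 for Cd8a to -2.05 for Cd247. Without replicate 0 of cold-exposed Atf4WT, in which Acta1 was high, 33 of 33 were lower without overlap, as were 7.58% of all tested genes. Leaving out replicate 1 of Atf4WT or replicate 1 of Atf4AKO, in which Adgre1 was low, gave 32 of 33 each time. Of the 13404 tested genes, 822 and 719 were lower without overlap in these 2 settings, respectively.

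Cold exposure against RT within Atf4WT was likewise part of the choice. Over 1.5-fold higher after cold exposure without overlap were 5 of 12 B cell, 13 of 16 T cell and 3 of 5 pan-leukocyte members, against 9.97% of all tested genes. The 5 B cell members were Cd22, Cd37, Blk, Blnk and Spib, and in the other 7 replicate 2 at RT exceeded replicate 0 after cold exposure. The T cell members that overlapped were Cd3d, Cd247 and Zap70, and the pan-leukocyte members Ikzf3 and Rac2. The median log2 differences were 4.40 in B cell, 3.27 in T cell and 1.79 in pan-leukocyte members, and 0.00 over all tested genes. Without both libraries in which Acta1 was above 10000, all 33 were higher without overlap, as were 14.06% of all tested genes, and the medians were 6.62, 4.72 and 2.65. Without replicate 1 after cold exposure, in which Adgre1 was low, the medians were 4.35, 2.75 and 1.62. The 2 comparisons share the cold-exposed Atf4WT libraries.

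Atf4AKO against Atf4WT at RT compares groups other than the one by which the members were chosen. It was tested with limma across all tested genes. The filter and the pooled estimate of the spread still used all 12 libraries, those of cold-exposed Atf4WT included, here and in the tested comparison within Atf4AKO. A gene was past the threshold where it changed more than 1.5-fold with p under 0.05 before adjustment. None of the 33 members passed it, against 0.463% of all tested genes in either direction. The count of members was also 0 with only these 2 groups fitted. No member had an unadjusted p-value under 0.05 (count 0), the smallest being 0.247 for Cr2 (adjusted p-value 1.00 in limma), and the standard errors ran from 0.43 to 1.44 on the log2 scale. In 9 of the 12 B cell members the standard error was above 1 on this scale, so genotype differences of several fold were not detectable in them with 3 libraries per group. With the reads recovered from the values, edgeR placed 1 member past the threshold (Cr2, lower) and DESeq2 2 members (Cd79a and Cr2, lower), all with adjusted p-values of 1.00. Over all tested genes edgeR placed 115 past it as lower and DESeq2 77.

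The B cell members were all below 0 in this comparison, with a median log2 difference of -0.57 and 12 of 12 lower in Atf4AKO. The T cell members had a median of 0.38 with 3 of 16 lower, namely Cd5, Cd6 and Cd247, and the pan-leukocyte members a median of 0.10. Cd6 passed the filter on low values only through the cold-exposed Atf4WT libraries, its mean over the other 9 being 9.90, and without it the median of the T cell members was 0.41 at RT and -0.73 in Atf4AKO after cold exposure. The direction in B cell members rested on replicate 2 of Atf4WT, and without it their median was 0.88. That of the T cell members was -0.042 without replicate 2 of Atf4AKO. Without the libraries in which Acta1 was above 10000, 4 members were past the threshold and higher in Atf4AKO, namely Cd4, Lck, Tcf7 and Lef1. Their limma log2 differences were 1.12, 1.07, 1.14 and 1.39, with adjusted p-values of 1.00. Of the 13404 tested genes 47 were higher past the threshold in that fit. It leaves out replicate 2 of Atf4WT, the highest library of its group in all 16 T cell members. Leaving it out raises the differences of these 4 genes by itself, so no conclusion is drawn from the 4 calls.

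Cold exposure against RT within Atf4AKO was tested in the same way. Of the 33 members, 30 had a negative log2 difference and 2 passed the threshold, both lower, against 8.92% of all tested genes that were lower past it. Bank1 fell by 1.72 on the log2 scale (SE 0.69, limma p-value 0.0303, adjusted 0.0903), and was lower in all 3 cold-exposed libraries, at 44.6, 12.5 and 43, than in the RT libraries, at 152, 56.8 and 108. Cd247 fell by 1.11 (SE 0.49, limma p-value 0.0444, adjusted 0.118), at 77.6, 53.3 and 41.9 against 96.7, 114 and 161. No member had an adjusted p-value under 0.05 in this fit (count 0, with 2 under 0.05 unadjusted). With edgeR both members passed the threshold and with DESeq2 as well, where the adjusted p-value of Bank1 was 0.0418 and that of Cd247 0.0603. In limma the adjusted p-value of Bank1 was 0.0316 with the replicate number as a block, that of Cd247 was 0.0430 with only these 2 groups fitted, and without the libraries with high Acta1 they were 0.0407 and 0.0136, respectively.

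Rac2 was also below its RT range in all 3 cold-exposed Atf4AKO libraries, with a log2 difference of -1.09 that did not pass the threshold (limma p-value 0.0823, adjusted 0.182). The median log2 differences were -0.59 in B cell, -0.73 in T cell and -0.80 in pan-leukocyte members, and -0.03 over all tested genes. Without replicate 1 after cold exposure, in which Adgre1 was low, they were -0.12, -0.42 and -0.40. Leaving out single libraries gave -1.18 to -0.12 in B cell, -1.096 to -0.27 in T cell and -1.25 to -0.40 in pan-leukocyte members. Both calls were lost without replicate 2 at RT or without replicate 1 after cold exposure, where the log2 differences were -1.14 for Bank1 and -1.075 for Cd247. The call of Bank1 was lost without replicate 0 at RT, and that of Cd247 without replicate 1 at RT or replicate 2 after cold exposure. Without replicate 0 after cold exposure 6 members passed, all lower, with Ptprc, Coro1a, Rac2 and Blnk added. Of the 13404 tested genes 1465 were lower past the threshold without that replicate. Without the libraries with high Acta1, which changes only the pooled estimate of the spread here, 4 members passed, with Cd2 and Rac2 added. All were lower, as were 1222 of the tested genes past the threshold in that fit.

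**Figure D5:**
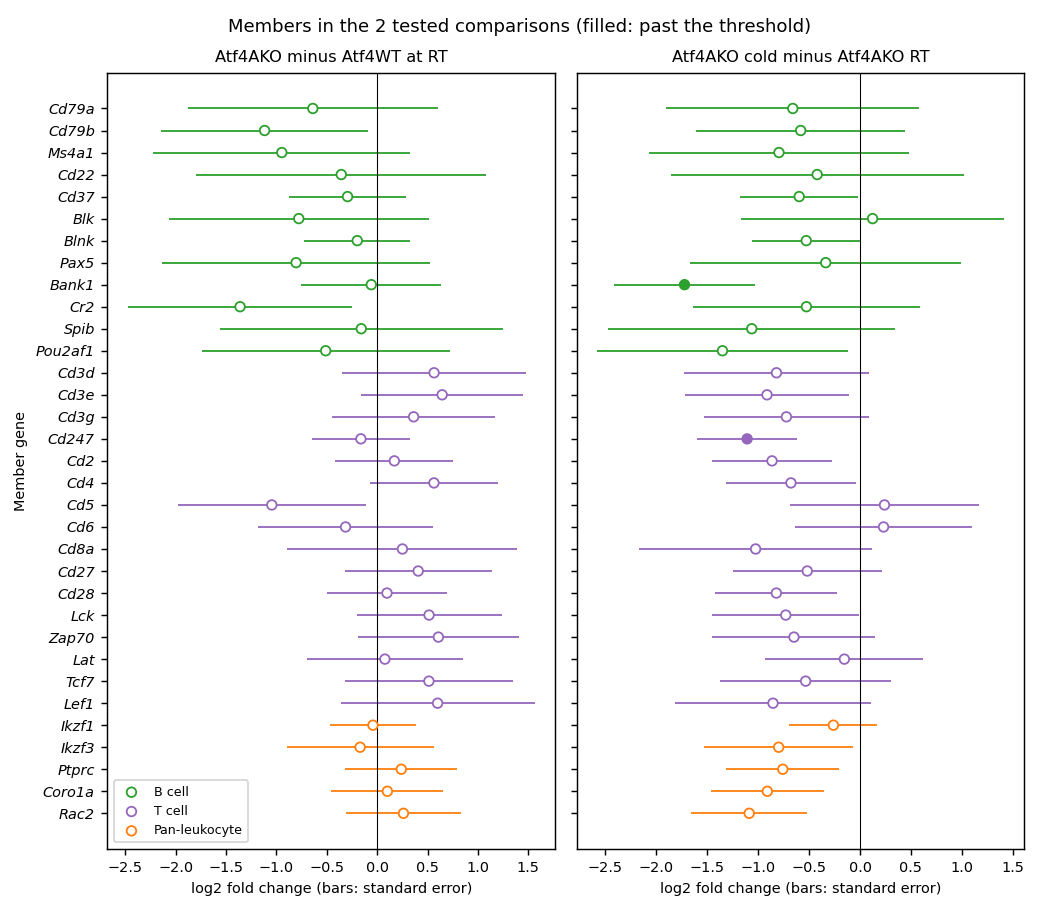
Points are log2 fold changes of the 33 members from limma in the 2 tested comparisons, bars are standard errors, and filled points passed the threshold. At RT no point is filled, and B cell members lie left of 0 with bars of up to 1.44, while in Atf4AKO after cold exposure only Bank1 (-1.72) and Cd247 (-1.11) are filled.

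Of 43 further genes of antigen receptor signalling, 41 were listed and tested. None passed the threshold at RT in limma (0 had an unadjusted p under 0.05), and 2 of 41 passed it in Atf4AKO after cold exposure, both lower, against the 8.92% of all tested genes that were lower past it. These were Cd81, a tetraspanin of the B cell co-receptor that is widely expressed, with a log2 change of -0.60 (limma adjusted p-value 0.00182), and Nfatc2, a calcium-regulated transcription factor, with -0.96 (adjusted p-value 0.112). Grb2 and Plcg1, an adaptor and a phospholipase used in many cell types, had log2 changes of -0.23 and 0.28. The median of the list was -0.50 after cold exposure and 0.04 at RT. Cold-exposed Atf4WT and Atf4AKO did not overlap, with Atf4AKO over 1.5-fold lower, in 21 of the 41, against 4.98% of all tested genes.

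Of 21 other B cell genes 16 were listed, and of 22 other T cell genes 16. Over 1.5-fold lower in Atf4AKO after cold exposure without overlap were 15 of the 16 other B cell genes (median log2 difference -3.42) and 15 of the 16 other T cell genes (-2.82). The share of all tested genes was 4.98%. H2-Ob, a chaperone of antigen presentation in B cells, was at 488, 926 and 1641 in Atf4WT and 77.6, 23.8 and 35.5 in Atf4AKO iWAT after cold exposure. Ltb, a lymphotoxin subunit, was at 311, 1234 and 1383 in Atf4WT and 68, 30.6 and 31.2 in Atf4AKO iWAT after cold exposure. Ets1 and Gimap6, which endothelial cells express as well, were at 1744, 3488 and 3765 in Atf4WT and 1694, 1614 and 1643 in Atf4AKO iWAT after cold exposure, and at 1359, 2269 and 2145 in Atf4WT and 1198, 1268 and 1049.8 in Atf4AKO iWAT after cold exposure, and showed smaller differences. In the tested comparisons 0 of the 16 other B cell genes passed in limma, with 0 at RT and 0 after cold exposure at an unadjusted p under 0.05. Of the other T cell genes 0 passed at RT, with 0 at an unadjusted p under 0.05, and Thy1, a T cell glycoprotein that stromal cells also express, was lower in Atf4AKO after cold exposure (log2 change -1.07, limma adjusted p-value 0.0571). Mef2c, a transcription factor of B cells and of endothelium and muscle, was at 738, 630.1 and 1008 in Atf4WT and 483, 429 and 587 in Atf4AKO iWAT after cold exposure.

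Lists of neighbouring cell types were read in the same libraries, and genes are named from them by their normalized counts without regard to length, which ranks no gene above another. Of the 166 genes in these and the previous lists, 9 passed the filter on low values only through the cold-exposed Atf4WT libraries. Of 13 genes of lymphocyte homing 12 were listed, and 9 were over 1.5-fold lower in Atf4AKO after cold exposure without overlap, against 4.98% of all tested genes. Itgb7, an integrin subunit for homing to mucosa, was at 659.5, 1058 and 1453 in Atf4WT and 305, 73.7 and 365 in Atf4AKO iWAT after cold exposure, while S1pr1 and Klf2, which endothelium expresses too, overlapped. Of these, Cxcr3 was past the threshold in Atf4AKO after cold exposure, with a log2 change of -0.96 (limma adjusted p-value 0.104). Of 12 genes of lymph node stroma 5 were listed, and 4 of the 5 were lower in Atf4AKO after cold exposure by this measure. The follicular chemokine Cxcl13 was at 198, 139.5 and 407 in Atf4WT and 507, 99.6 and 122 in Atf4AKO iWAT at RT, and at 663, 491 and 1494 in Atf4WT and 209, 72.6 and 401 in Atf4AKO iWAT after cold exposure. In cold-exposed Atf4WT replicate 2 was highest in Cxcl13 as in the B cell members. However, replicate 0 of that group was above replicate 1 in Cxcl13 and below it in all 12 B cell members. In cold-exposed Atf4AKO Cxcl13 was highest in replicate 2, whereas 11 of the 12 B cell members were highest in replicate 0. Ltbr stayed between 2318 and 3118 in all libraries, and Tnfsf13b, which encodes the B cell survival factor BAFF, fell by 1.34 in Atf4AKO after cold exposure (limma adjusted p-value 0.00443).

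The 11 genes of NK and cytotoxic cells all had a positive log2 difference of Atf4AKO from Atf4WT at RT, while 6462 of the 13404 tested genes had a negative one. Their sums overlapped, at 734, 401 and 691 normalized counts in Atf4WT and 640.5, 913 and 1767 in Atf4AKO, with replicate 2 of Atf4AKO the highest. Of these genes 2 passed the threshold (0.463% of all tested genes did in either direction), Ncr1 (log2 change 1.14, limma adjusted p-value 1.00) and Klrb1c (1.02, adjusted p-value 1.00). After cold exposure 6 of the 11 were over 1.5-fold lower in Atf4AKO than in Atf4WT without overlap, against 4.98% of all tested genes. Ccl5, a chemokine of T and NK cells, was at 201, 967 and 1361 in Atf4WT and 154, 69.2 and 109.6 in Atf4AKO iWAT after cold exposure, and so was high in the 2 libraries with high T cell genes. Klrk1 and Nkg7, a receptor and a granule protein of cytotoxic cells, were at 125, 127 and 235 in Atf4WT and 120.1, 48.8 and 90.3 in Atf4AKO iWAT after cold exposure, and at 101, 267 and 293 in Atf4WT and 132, 45.3 and 64.5 in Atf4AKO iWAT after cold exposure. Prf1, encoding perforin, fell by 1.06 in Atf4AKO after cold exposure (limma adjusted p-value 0.114).

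The remaining lists did not separate cold-exposed Atf4WT from Atf4AKO in the same way. Without overlap and over 1.5-fold lower in Atf4AKO after cold exposure were 0 of 11 macrophage, 2 of 8 dendritic cell, 1 of 6 neutrophil and mast cell, 0 of 5 lymphatic endothelium, 1 of 7 plasma cell, 1 of 5 germinal centre, 0 of 6 proliferation, 0 of 12 adipocyte and 0 of 5 other non-leukocyte genes. The share of all tested genes was 4.98%. The summed macrophage genes were at 15017 to 37795 normalized counts in cold-exposed Atf4WT and 6011 to 32975 in cold-exposed Atf4AKO, with Lyz2, C1qa and C1qb among them. Replicate 1 of cold-exposed Atf4WT was the lowest of its group in these genes and was high in B cell and T cell members. The plasma cell list, which includes Xbp1, Irf4 and Sdc1, summed to 5629.6 to 6084 in Atf4WT and 5614 to 6272 in Atf4AKO after cold exposure. Xbp1 alone was at 5032, 4876 and 3987 in cold-exposed Atf4WT and 4609, 4673 and 4347 in cold-exposed Atf4AKO. These sums therefore mostly show this 1 gene and say little on plasma cells.

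Adipocyte genes, such as Fabp4, Cfd and Pnpla2, summed to between 1.15e+06 and 1.78e+06 normalized counts in all 12 libraries. In the tested comparison of Atf4AKO after cold exposure, 1113 of the 13404 tested genes were higher past the threshold and 1196 lower. Of the 12 adipocyte genes 1 passed (Ucp1, log2 change 7.51, limma adjusted p-value 8.69e-06). Of 6 proliferation genes 1 passed (Cdk1, -1.03, limma adjusted p-value 0.114), in a list that also holds Mki67, Top2a and Ccna2. In the same comparison lower past the threshold were Siglech of the dendritic list (with Ccr2, Zbtb46 and Clec9a), Pdpn of the lymphatic list (with Lyve1 and Flt4) and Col1a1 of the other non-leukocyte genes (with Pecam1 and Cdh5). Their limma adjusted p-values were 0.109, 0.118 and 0.0352, and Siglech and Pdpn overlapped between the groups. Mcpt4 and Ms4a2 of the mast cell list (with Kit and Cpa3) and Xbp1 were also lower (limma adjusted p-values 0.020, 0.0506 and 0.00156). Of the germinal centre list, which also holds Fas, Bcl6 was higher (limma adjusted p-value 0.00284). S1pr2 and Gcsam were lower past the threshold (limma adjusted p-values 0.0968 and 0.0709). Gcsam was higher past it in Atf4AKO at RT before adjustment only (limma p-value 0.0401).

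The genes outside all lists whose log2 values were most like the mean of the 33 members over the 12 libraries were Psd4, Rasal3, Il21r, Traf3ip3, Gpr174, B3gnt5, Runx3, Zfp831, Cyfip2 and Scml4. Their Pearson correlations lay between 0.982 (Scml4) and 0.992 (Psd4), as a description among 11670 genes whose mean was 50 normalized counts or more. Both the ranking and this filter used the cold-exposed Atf4WT libraries by which the members were chosen, and 6 of the 10 genes had a mean under 50 in the other 9 libraries, as low as 15.1 for Zfp831. Over those 9 libraries the correlations of the same 10 genes lay between 0.928 (B3gnt5) and 0.965 (Psd4). The points share libraries and their normalization, and no p-value is given. Il21r, the receptor of interleukin-21, was at 200.3, 698 and 869 normalized counts in cold-exposed Atf4WT and 61.6, 14.7 and 23.6 in cold-exposed Atf4AKO iWAT. Runx3, a transcription factor of cytotoxic T cells and NK cells, was at 46.2, 147 and 221 and 30.8, 7.9 and 10.7.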

How the data were processed

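Polyadenylated RNA of whole iWAT was measured in 12 libraries (4 groups of 3), grouped by genotype and temperature as labelled. The labels do not say whether replicates are single mice, and if they are not, p-values measure only the spread between these samples. The deposited unit is a signal per gene, in which the authors scaled read numbers by DESeq2 size factors. Per the methods, reads were filtered with SOAPnuke, mapped to mm10 with STAR, and uniquely mapped reads were counted with featureCounts and normalized in pyDESeq2. Versions and the strand setting are not given in the sources used here. Dividing by the value of 1 read in each library gave whole reads for 100.0% of values within 0.01 reads, and every listed gene had at least 1 read in each library. Replicates of a group differed beyond counting error (chi-square per degree of freedom 34.5 to 69.8), so none was counted as a copy.

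Genes were tested in R 4.3.3 by limma 3.58.1 with a mean-variance trend, on log2(normalized count + 1), on 13404 genes with a mean of at least 10, with 4 group means and no covariates. Fold changes are on the log2(normalized count + 1) scale, which understates changes of low genes. The threshold was a fold change over 1.5 and p under 0.05, with Benjamini-Hochberg adjustment over all tested genes. Comparisons with the cold-exposed Atf4WT libraries, by which the members were chosen, were not tested. Alternatives were pseudocounts of 0.5 and 5, other filters, rescaling, only 2 groups, a replicate block, edgeR 4.0.16 and DESeq2 1.42.0 on the recovered reads, and leaving out libraries; leaving out both libraries with high Acta1 at once, or replicate 1 of cold-exposed Atf4AKO between the cold-exposed groups, was chosen after seeing the data. Python 3.11.15, numpy 2.4.6, pandas 2.3.3, scipy 1.17.1 and matplotlib 3.10.9 were used, with gene positions and exon lengths from GENCODE M21.

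The members and lists were chosen with earlier results of these data known. Named genes are all members, the 3 genes with the highest mean normalized count in each other list, those of the lists past the threshold, and the 10 genes most like the mean of the members. Tead2, Pou2f1 and Bola2 were named after their values were seen as were the genes past the threshold in lists other than antigen receptor signalling. Immunoglobulin and T cell receptor constant genes were not analysed here.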

Additional observations from a re-analysis of the deposited data

How the results depend on the processing

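In Atf4AKO against Atf4WT at RT, the count of 0 members was 1 with edgeR, 2 with DESeq2 and 4 without the libraries with high Acta1, and 0 without any single replicate. Over all genes the 62 calls were 29 with a filter at a mean of 50, 138 with edgeR, 101 with DESeq2, 71 without the libraries with high Acta1, 1 with adjusted p-values and 47 to 129 without single replicates. In Atf4AKO cold against RT, the 2 members were 4 without the libraries with high Acta1, 0 with adjusted p-values and 0 to 6 without single replicates, while all genes gave 2309 calls (1196 lower, 1113 higher) and 1864 to 2697 without single replicates. Rescaling to the 75th percentile gave 1445 lower and 899 higher. The median of B cell members at RT was -0.57, and 0.88 without the libraries with high Acta1. Without single replicates it ran from -1.64 to 0.88, that of T cell members from -0.042 to 0.94 and that of pan-leukocyte members from -0.14 to 0.59. Cold against RT in Atf4WT gave 6.62 for B cell and 4.72 for T cell members without the libraries with high Acta1. The mean log2 of B cell minus T cell members ranged from -0.32 to 1.08 in Atf4WT and -0.90 to 0.30 in Atf4AKO at RT without single replicates. Correlations of same-numbered deviations were -0.05, 0.32 and 0.37 at RT, 0.04, 0.30 and -0.19 for Atf4AKO, and -0.15, 0.39 and 0.31 between the cold-exposed groups. Those of pairs with different numbers ran from -0.38 to 0.27, from -0.30 to 0.31 and from -0.47 to 0.31, respectively. Whether replicate numbers pair the samples was therefore not settled. A replicate block gave 0 and 2 members and 69 and 2493 genes. The causes were not tested. With 3 libraries per group, the spread between replicates limits the tests of members, and in Spib and Pou2af1 values of 1 read do too.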
